A study of Caenorhabditis elegans with 15 samples.

Results

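RNA recovered by anti-FLAG immunoprecipitation (IP) of tagged GLD-1 was set against the RNA of the starting lysate, probe set by probe set. The comparison set the 3 anti-FLAG IPs of a second IP set (tagged FLAG IP) against 3 inputs, together 6 of the 15 Affymetrix C. elegans arrays of the series. All 6 arrays came from whole young adult worms with the mutant allele q485 of gld-1 and the transgene ozIs2 [gld-1::gfp::flag], which codes for GLD-1 fused to GFP and FLAG. The same IP set held 3 anti-FLAG IPs of untagged wild type worms (N2), and the first set held 3 anti-FLAG and 3 anti-MYC IPs of the tagged strain. These 9 arrays are used below only as values beside the comparison. The labels do not tie the inputs to either IP set and do not say whether replicates came from separate worm cultures, so p-values measure the spread between these arrays only. The labels give no promoter for the transgene.

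The probe sets described are those with a mean of log2 6 or more over the 3 inputs, a filter that makes no use of the IP arrays. They number 6930 of 22548 probe sets outside the array's own controls, and represent 5343 genes, of 17118 genes with a probe set of their own. The filter does use the inputs, to which the IPs are compared, so it can favour lower calls over higher ones.

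GLD-1 is a STAR-family RNA-binding protein of the hermaphrodite germline. It binds the untranslated regions of messenger RNAs and holds back their translation while germ cells pass through early meiosis. Many of its known targets are maternal transcripts that are translated later, in growing oocytes and embryos. An IP of the protein recovers transcripts bound to it together with any RNA that sticks to the beads, and the lysate of a whole worm also holds the RNA of muscle, gut, skin, neurons and sperm.

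The starting material differed between the groups in more than the IP. Per the labels, 5 µg of each input was amplified, whereas each IP was mixed with 10 µg of mouse brain RNA and a portion of it was amplified. How much worm RNA each IP held is not stated. A log2 difference below therefore compares signal on arrays, and the amount of RNA recovered and its composition cannot be told apart from it. Ranks within an array are given beside it, since they do not change when an array is brighter or dimmer as a whole. In whole worms, fewer cells of a type and less RNA per cell cannot be told apart either.

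Signal on the tagged FLAG IP arrays was far below input for most transcripts. The median over the 6930 probe sets was 3.61, 3.38 and 3.26 (log2) on tagged FLAG IP replicates 1, 2 and 3, against 7.97, 7.52 and 8.37 on the inputs. A signal of log2 5 or more was reached by 1750, 1423 and 1249 of them in the tagged FLAG IPs and by at least 6854 on each input array. The lowest value that an array could show was 2.47 to 2.49 in the tagged FLAG IPs and 2.21 to 2.28 in the inputs. Replicates resembled each other, with Pearson r over these probe sets of 0.98 between tagged FLAG IPs and 0.94 to 0.99 between inputs, while r between the groups was 0.52 to 0.61. Input replicate 2 stood apart from the other inputs (r of 0.94 and 0.95, against 0.99 between replicates 1 and 3) and had the lowest median of them.

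The median log2 difference, tagged FLAG IP minus input, was −4.22, a signal 18.6-fold lower. Among all 22548 probe sets, limma with Benjamini-Hochberg adjustment called 10614 lower (47.1%) and 8462 higher (37.5%) at an adjusted p under 0.05. Of the higher calls 8446 lay below the input filter, and 8372 of those had both group means under log2 3, where the arrays' unequal lowest values fix the direction. Within the 6930 probe sets above the filter, 6659 were lower (96.1%), 16 were higher (0.231%) and 255 were not called. All 3 tagged FLAG IPs lay below all 3 inputs for 6663 probe sets (96.1%) and above them for 19 (0.274%). This split belongs to the deposited scale: after quantile normalization 1570 were called higher and 2473 lower, and with each array centred on its median over these probe sets 2906 were higher and 1756 lower.

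Transcripts were divided by how much signal they kept on the deposited scale. A difference of −1 or more, which keeps at least one part in 2 of the input signal, is called near input here and was found for 268 probe sets (3.87%) of 207 genes. A value within 0.1 of the array's lowest on all 3 tagged FLAG IPs is called lost and was found for 283 probe sets (4.08%) of 264 genes. The other 6379 probe sets lay between these limits. Counting each gene once, by its probe set of highest mean signal, 200 of 5321 genes were near input and 210 were lost.

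**Figure D1:**
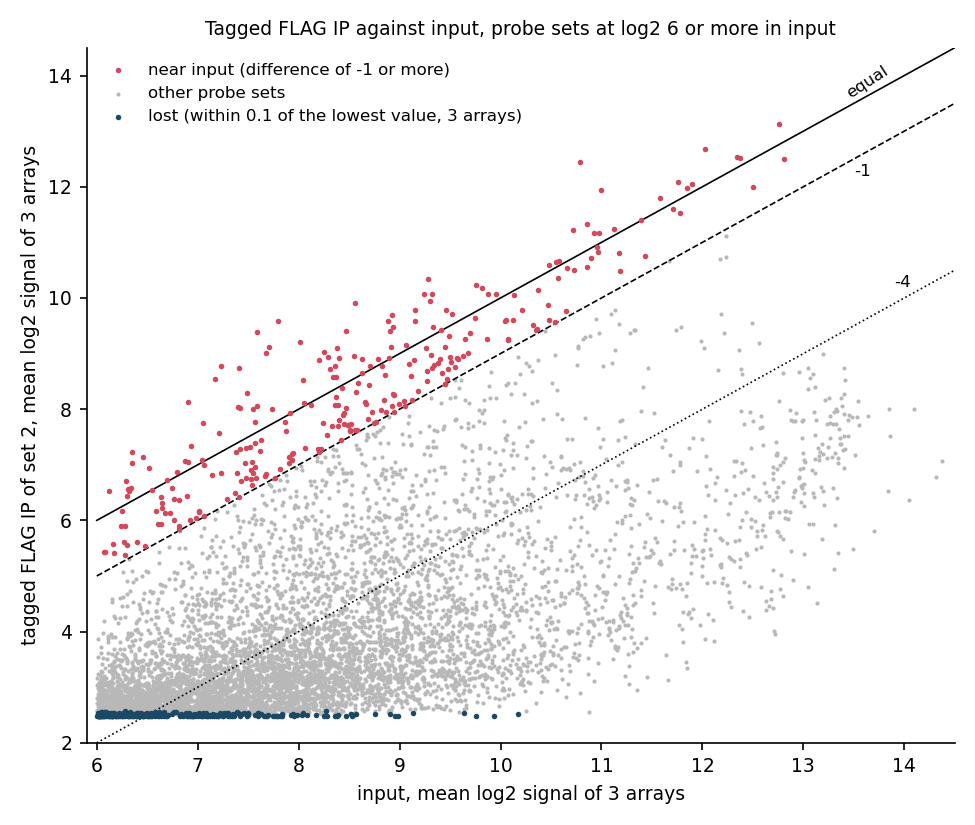
Mean log2 signal in 3 tagged FLAG IPs (vertical) against the mean of 3 inputs (horizontal), 1 point per probe set at log2 6 or more in input. The 268 probe sets near input follow the line of equal signal up to log2 13.12 in the tagged FLAG IPs, the 283 lost ones lie along the lowest value, and the dotted line marks a difference of −4.

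The near-input transcripts had high signal in the tagged FLAG IPs and low signal in the N2 FLAG IPs. Their median signal was 8.72, 8.12 and 7.87 in tagged FLAG IP replicates 1 to 3, against 8.49, 8.06 and 8.96 in the inputs. In the N2 FLAG IPs the same probe sets had medians of 3.48, 3.22 and 2.98. All 268 lay above every N2 array in all 3 tagged FLAG IPs, where 2971 of the 6930 probe sets (42.9%) did so. The class requires tagged FLAG IP signal close to input, and its lowest mean there was 5.38. At most 434 of the 6930 probe sets reached log2 5 on any N2 array. The count therefore follows largely from the choice of these 268. In the first set the medians of these probe sets were 5.85, 7.79 and 7.98 in the anti-FLAG IPs, and 2.88, 3.17 and 3.69 in the anti-MYC IPs. Median percentile rank, counted from 0 to 100 within each array over the 6930 probe sets, was 96.9 in the tagged FLAG IPs, 67.7 in the N2 FLAG IPs and 62.9 in the inputs. A percentile rank higher than in input was called for 1985 of all 6930 probe sets (28.6%) and a lower one for 2172 (31.3%). Of the 268 near-input probe sets 255 had a higher rank and 0 a lower one; since a probe set that keeps its level while most others fall must gain rank, that count adds nothing to the choice of the class. In the log2 test 16 of the 268 were higher, 30 were lower and 222 were not called, and a difference that was not called is not thereby shown to be 0.

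The gene of the immunoprecipitated protein was itself near input. The probe set of gld-1 read 10.49, 10.13 and 9.90 in the tagged FLAG IPs, against 10.01, 9.04 and 10.42 in the inputs. The groups overlapped, and the difference was 0.35 ± 0.40 (SE, n = 3 each; limma adjusted p = 0.443), with a 95% interval of −0.69 to 1.39. In the N2 FLAG IPs gld-1 averaged 4.62 ± 0.86 (SD, n = 3). Its percentile rank was 99.4 in the tagged FLAG IPs and 84.6 in the inputs (limma on ranks, adjusted p = 0.00944). The array has another gld-1 probe set, which lay below the filter at 3.34 in the tagged FLAG IPs and 3.40 in the inputs.

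The 16 higher calls fell on 12 genes, of which 10 were called by the probe set that stands for the gene. oma-2, whose zinc finger protein acts in oocyte maturation, read 12.81, 12.41 and 12.11 in the tagged FLAG IPs, against 10.63, 10.68 and 11.05 in the inputs. No tagged FLAG IP overlapped an input, and the difference was 1.66 ± 0.22 (SE; limma adjusted p = 0.00161). Tested against a change of more than 2-fold (limma treat), oma-2 was the one probe set still called higher, with an adjusted p of 0.0431. A second oma-2 probe set gave a smaller difference, 0.84 (limma adjusted p = 0.00887). pup-2, which encodes a poly(U) polymerase, read 9.26, 8.65 and 8.42 in the tagged FLAG IPs and 7.19, 7.03 and 7.47 in the inputs. Its 3 probe sets above the filter were all called higher, by 1.55, 1.37 and 1.23.

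snpn-1, a homologue of the vesicle trafficking protein snapin, had the largest difference of any of the 6930 probe sets. It read 9.92, 9.41 and 8.87 in the tagged FLAG IPs, against 7.86, 6.61 and 8.30 in the inputs, a difference of 1.81 ± 0.53 (SE; limma adjusted p = 0.0246). The other snpn-1 probe set differed by 0.27 (limma adjusted p = 0.261), so the probe sets of this gene disagreed. Further genes called higher were Y39E4B.5 (1.42), Y54G9A.5 (1.36), eme-1 (1.33), an endonuclease homologue, and bir-1 (1.06), the survivin homologue of the chromosomal passenger complex. rmd-1 (0.96), a regulator of microtubule dynamics, neg-1 (0.94) and ppcd-1 (0.78) completed the group. rmd-1 read 12.45, 11.98 and 11.41 in the tagged FLAG IPs, against 10.86, 10.84 and 11.28 in the inputs.

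The calls of oma-2, pup-2, Y39E4B.5 and Y54G9A.5 held whichever array was left out, with adjusted p-values of at most 0.0174, while each of the other 6 was lost on leaving out some array. Without input replicate 1 or without tagged FLAG IP replicate 2 the number of higher calls was 9 each, compared with 16 in full, and without input replicate 2, the array that stood apart, it was 12. With all 15 arrays in the fit bir-1, rmd-1, neg-1 and ppcd-1 were not called, at adjusted p-values of 0.0821 to 0.202. On N2 arrays the highest value of the 10 genes was 5.87, that of rmd-1.

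**Figure D2:**
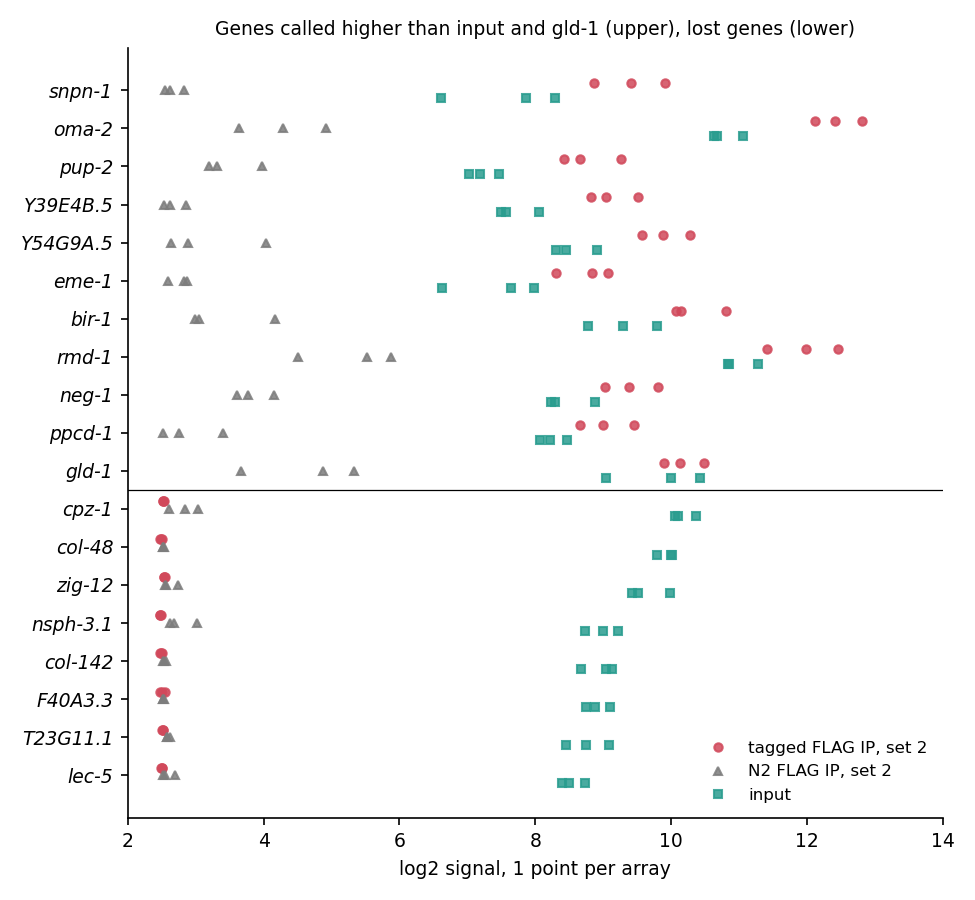
Log2 signal per array (1 point per array) of the 10 genes called higher than input, gld-1 and the 8 lost genes of highest input, in 3 tagged FLAG IPs, 3 N2 FLAG IPs and 3 inputs. For the 10 higher genes every tagged FLAG IP lies right of every input, for gld-1 the groups overlap, and the lost genes lie at 2.47 to 2.55 in the tagged FLAG IPs.

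Among 12 earlier reported GLD-1 targets above the filter, 9 were near input, 1 was called higher, 4 were called lower and 0 were lost. All 12 had a higher percentile rank than in input and all 12 lay above every N2 array. Over all genes 200 of 5321 were near input, 10 were called higher, 5118 were called lower and 1494 had a higher rank. Of the same 5321 genes 2285 lay above every N2 array. The list median was −0.23, against −4.23 over all genes. These targets were known, and the list was written, with results of these data in view, so the counts describe the list and support nothing about it. A thirteenth listed target, cye-1, had an input mean under the filter.

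The differences of the targets ran from 1.66 (oma-2) to −2.97 (mes-3). tra-2, the receptor of the sex determination pathway, read 7.55, 7.11 and 6.75 in the tagged FLAG IPs, against 6.59, 6.03 and 6.76 in the inputs. Its groups barely overlapped, the difference of 0.68 ± 0.29 (SE; limma adjusted p = 0.0768) was not called, and its rank was 93.6 in the tagged FLAG IPs against 11.7 in the inputs. rme-2, the yolk receptor of oocytes, read 11.63, 11.17 and 10.69 in the tagged FLAG IPs, against 10.67, 11.21 and 11.04 in the inputs. The rme-2 groups overlapped, although the highest value was a tagged FLAG IP and the lowest an input. gna-2 (0.64), an enzyme of chitin precursor synthesis, oma-1 (0.43), mex-3 (−0.10), puf-5 (−0.37) and the homeodomain gene pal-1 (−0.67) were not called. Called lower were spn-4 (−0.70), an RNA-binding protein of early embryos, as well as the Notch receptor gene glp-1 (−1.13), the p53 homologue cep-1 (−1.46) and the chromatin gene mes-3 (−2.97). mes-3 read 4.59, 4.40 and 4.18 in the tagged FLAG IPs and 7.61, 6.18 and 8.30 in the inputs, so it kept the least of the 12 while its N2 values were 3.27, 3.22 and 3.29.

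RNA regulators of oocytes and embryos divided into kept and depleted members. Of 26 genes 12 were near input, 1 was called higher, 16 were called lower and 0 were lost, and the list median was −1.32. The Pumilio family genes puf-7 (0.24), puf-11 (−0.31), puf-5 (−0.37) and puf-3 (−0.89) were near input, and of these puf-3 was called lower. The Pumilio family genes fbf-1 and fbf-2 were called lower with differences of −4.31 and −3.55. Several of these are close copies of one another, and the array maker marks some of their probe sets as sharing sequence, so their signals may be mixed. The zinc finger genes pie-1 (0.21), pos-1 (−0.10) and mex-5 (−0.59) stayed near input as well, while mex-1 was called lower (−4.29). Those names were taken from the list after their values were seen. At the low end were etr-1 (−4.70), a CELF-type RNA-binding protein, and ife-1 (−6.10), a cap-binding protein of germ granules. ife-1 read 5.15, 4.39 and 4.02 in the tagged FLAG IPs, against 10.49, 10.53 and 10.85 in the inputs and 4.11, 4.04 and 3.09 in the N2 FLAG IPs.

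Genes of yolk uptake and the eggshell held 8 near-input members of 13, with 6 called lower, 0 higher and 0 lost, and a list median of −0.67. egg-1, an oocyte surface protein needed for fertilization, read 11.69, 11.30 and 10.97 in the tagged FLAG IPs and 10.84, 10.68 and 11.04 in the inputs, a difference of 0.47 ± 0.21 (SE; limma adjusted p = 0.0914). The chondroitin proteoglycan genes cpg-2 (0.36) and cpg-1 (0.19), the chitin-binding gene cbd-1 (0.32), mbk-2 (−0.67) and the chitin synthase gene chs-1 (−0.82, called lower) were near input too. perm-2 (−4.89), perm-1 (−5.15) and perm-4 (−5.35), named for the permeability barrier of the egg, were called lower. perm-1 read 2.88, 2.85 and 2.73 in the tagged FLAG IPs, against 7.80, 7.95 and 8.17 in the inputs, and its N2 values of 2.71, 2.87 and 2.72 overlapped the tagged FLAG IPs.

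Other germline lists were mixed, with a few members near input. In the list of stem cell and sex determination genes 2 of 16 were near input (tra-2 and gld-1), 13 were called lower and 11 gained rank, with a median of −2.996. There gld-3 (−1.02), fem-3 (−1.05) and glp-1 (−1.13) lay just under the limit, while fem-2 (−5.10) and fog-2 (−6.003) were among the lowest. fog-2 encodes an F-box protein that acts with GLD-1 on tra-2, and it read 2.81, 2.74 and 2.66 in the tagged FLAG IPs against 8.41, 8.87 and 8.92 in the inputs. Of 34 cell cycle genes 4 were near input 1 was called higher and 30 were called lower, with a median of −3.77. The near-input ones were bir-1 (1.06), the B-type cyclins cyb-2.1 (−0.03) and cyb-2.2 (−0.18), and the replication licensing gene mcm-5 (−0.53). Another B-type cyclin, cyb-3, lay just below the limit at −1.004, although its other probe set differed by −2.06, and cyb-1 was called lower (−3.71). The lowest of the list were the kinase genes cdk-1 (−5.80) and bub-1 (−5.84).

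Meiosis genes had 2 near-input members of 25, lab-1 (−0.16) and spo-11 (−0.78), and a median of −3.99. Both rest on scattered inputs: spo-11 read 6.30, 5.65 and 4.91 in the tagged FLAG IPs, against 7.33, 4.32 and 7.55 in the inputs, where replicate 2 was far below the others. The chromosome axis gene htp-3 (−5.55) and him-17 (−6.11) were called lower. Of 18 P granule and small RNA genes 2 were near input, mut-16 (−0.11) and meg-1 (−0.55), and 16 were called lower, among them the Argonaute gene csr-1 (−5.44) and the helicase gene glh-1 (−6.04).

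**Figure D3:**
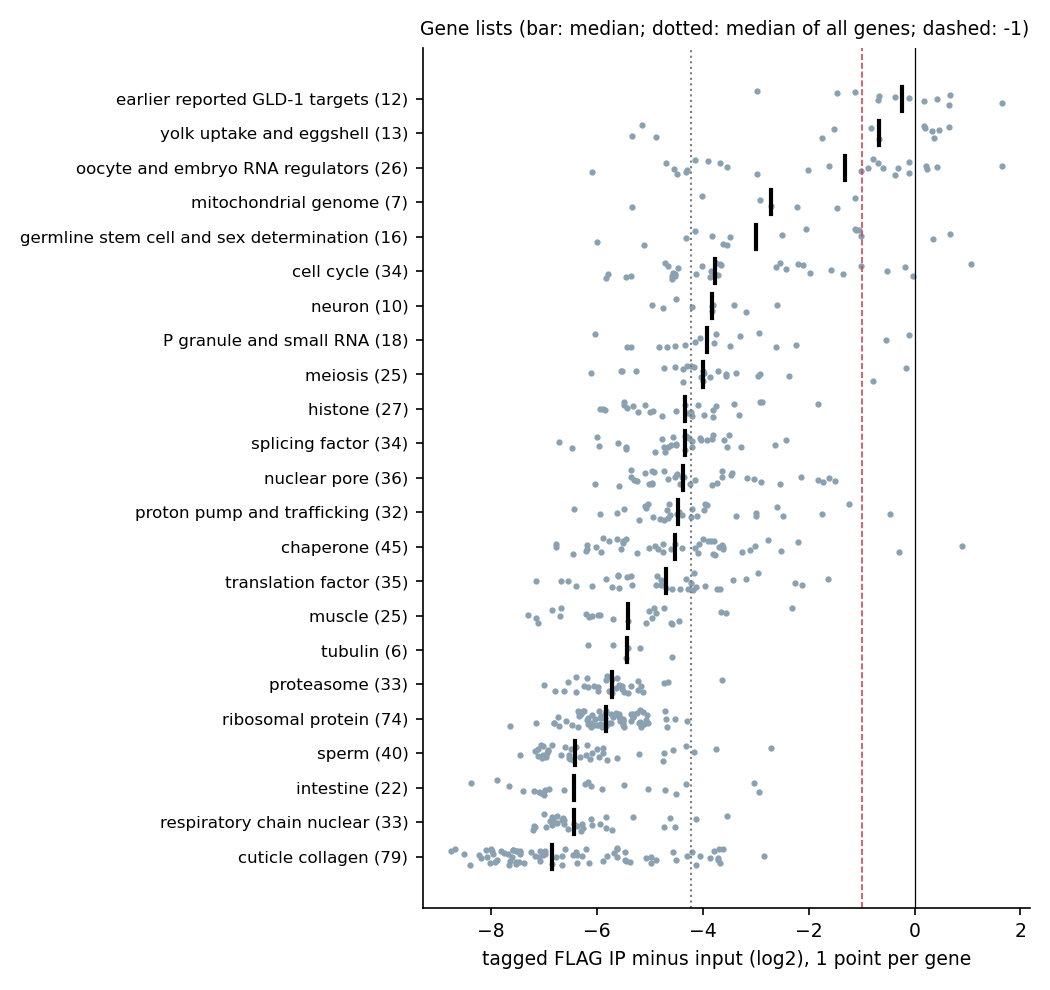
Log2 difference, tagged FLAG IP minus input, of each gene (points) in 23 gene lists, with the number of genes above the input filter in brackets. Earlier reported targets, eggshell genes and oocyte RNA regulators have medians of −0.23, −0.67 and −1.32, against −4.23 over all genes (dotted line), while collagens lie lowest at −6.86.

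The genes of somatic tissues and of sperm held no near-input member. All 79 cuticle collagens above the filter were called lower (median −6.86), as were all 40 sperm genes (−6.42), 22 intestinal genes (−6.43), 25 muscle genes (−5.41) and 10 neuronal genes (−3.82), where 96.1% of all 6930 probe sets were lower. Relative to the all-gene median, the first 4 of these lists stayed below 0 after quantile normalization. The relative median of the neuronal list was 0.41 on the deposited scale and −0.36 after quantile normalization. Centring shifts each array by a constant, so it cannot change a relative median. The largest fall of all 6930 probe sets was that of the collagen dpy-4, which read 4.30, 3.75 and 3.79 in the tagged FLAG IPs against 12.48, 12.98 and 12.69 in the inputs, a difference of −8.77 ± 0.21 (SE; limma adjusted p = 1.06e-05). In the N2 FLAG IPs dpy-4 read 3.61, 3.44 and 3.10. The major sperm protein gene msp-49 read 4.82, 4.19 and 4.07 in the tagged FLAG IPs, against 11.66, 11.94 and 11.83 in the inputs and 5.41, 4.92 and 4.40 in N2; genes of this family share sequence and are not resolved from one another. The lysozyme gene lys-4 fell by 8.38 and the myosin heavy chain gene unc-54 by 7.31.

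Some members of these tissue lists kept more. unc-60, a cofilin gene of the muscle list, read 9.78, 9.42 and 9.25 in the tagged FLAG IPs. It read 11.74, 11.64 and 11.99 in the inputs and 6.42, 5.28 and 4.90 in N2. Its other probe sets above the filter disagreed, with differences of −1.82, −2.60, −3.40 and −5.93, and several of them are marked as sharing sequence. Which transcript of the gene, and which tissue, the kept signal came from was not tested. The intestinal metallothionein gene mtl-2 had a difference of −2.94 and a rank of 99.0 in the tagged FLAG IPs against 97.4 in the inputs. Among neuronal genes the synaptobrevin gene snb-1 (−2.61) and unc-119 (−3.18) lay highest, and both gained rank.

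Markers of cell types were read beside these classes. Summed over 8 oocyte markers, of which 4 are also earlier reported targets, signal was log2 14.20 to 14.93 in the tagged FLAG IPs, against 13.98 to 14.32 in the inputs and 7.08 to 8.57 in the N2 FLAG IPs, and all 8 were near input. These 8 come from the oocyte RNA regulator and eggshell lists, where 12 of 26 and 8 of 13 genes were near input and genes such as egg-2 (−1.52), lin-41 (−2.97) and perm-1 (−5.15) were called lower. The sums of 11 muscle markers were 9.35 to 10.38 in the tagged FLAG IPs, 8.09 to 9.51 in N2 and 14.77 to 15.11 in the inputs. For 6 sperm markers with a probe set they were 7.24 to 8.30 in the tagged FLAG IPs, 7.62 to 9.05 in N2 and 14.17 to 14.45 in the inputs. Intestinal, hypodermal and neuronal markers had sums of 9.24 to 10.63, 7.18 to 7.86 and 7.84 to 8.44 in the tagged FLAG IPs, against 15.26 to 15.57, 14.65 to 15.12 and 10.88 to 11.59 in the inputs. In the N2 FLAG IPs the same sums were 8.04 to 9.44, 6.88 to 7.76 and 6.13 to 6.33. Genes taken as markers of the gonad sheath and spermatheca summed to 5.15 to 5.40 in the tagged FLAG IPs. Their sums were 5.08 to 5.16 in N2 and 8.83 to 9.50 in the inputs. In the inputs ule-3 was the brightest of them at 8.53, while lim-7 (3.24) and fkh-6 (4.80) lay below the filter. These sums therefore lean on ule-3, whose tissue of expression was not tested. At the array's lowest value in all tagged FLAG IPs were 1 of 11 muscle, 4 of 10 neuronal, 1 of 6 sperm and 0 of 11 intestinal markers. Of the sheath and spermatheca markers 1 of 5 was at the lowest value. These counts include markers below the input filter. The sperm marker, spe-9, and the neuronal marker sng-1 averaged only 2.43 and 2.27 in the inputs, so they show no loss. The neuronal marker snt-1 also lay below the filter, whereas rab-3, egl-21 and the muscle marker myo-3 lay above it. So did the sheath and spermatheca marker ceh-18, at 2.53 in the tagged FLAG IPs and 6.37 in the inputs. The part of tissue of origin in the log2 differences was not tested.

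Genes of general cell functions were called lower about as often as other genes, of which 5118 of 5321 (96.2%) were. All 74 ribosomal protein genes were called lower, with a median of −5.83 and a range from −7.64 (rpl-23A.1) to −4.29 (rpl-41.2). Their median signal of 7.33 in the tagged FLAG IPs compares with 7.16 in the N2 FLAG IPs and 13.11 in the inputs, and 0 of the 74 lay above every N2 array. They nevertheless kept a high place, with a median percentile rank of 94.3 in the tagged FLAG IPs, 99.0 in N2 and 99.0 in the inputs. All 33 proteasome genes (median −5.72), all 33 nuclear genes of the respiratory chain (−6.44) and all 6 tubulin genes (−5.44) were called lower. Genes listed as translation factors (35 genes, median −4.70) were all called lower too, with clu-1 (−1.63) and ifg-1 (−2.12) the least so and eef-1B.2 (−7.16) the most. The other clu-1 probe set above the filter differed by −3.36.

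Other lists lay close to the all-gene median, at −4.33 for 27 histone genes, −4.34 for 34 splicing factors, −4.38 for 36 nuclear pore and transport genes and −4.47 for 32 proton pump and trafficking genes. The last 3 of these lie below that median on the deposited scale and above it after quantile normalization. The highest member of each was the linker histone gene hil-4 (−1.83), the splicing factor gene prp-40 (−2.42), the transport gene ran-1 (−1.51) and the small GTPase gene arl-8 (−0.46). Among 45 chaperone genes 2 (4.44%) were near input, close to the 3.76% over all genes. sip-1, a small heat shock protein gene, read 12.83, 12.39 and 12.30 in the tagged FLAG IPs, against 12.63, 12.84 and 12.96 in the inputs, and the overlapping groups were not called different (difference −0.30, limma adjusted p = 0.157). The other was the J-domain gene dnj-2 (0.89, limma adjusted p = 0.207), whose other probe set differed by −0.55.

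Transcripts of the mitochondrial genome encode respiratory chain subunits, as the nuclear list does. All 7 were called lower, as were 96.2% of all genes, and their median was −2.71, beside −6.44 for the nuclear list and −4.23 over all genes. All 7 lay above every N2 array, as did 3 of the 33 nuclear genes and 2285 of all 5321 genes. COX3 read 11.45, 11.16 and 10.72 in the tagged FLAG IPs, against 12.37, 11.73 and 12.61 in the inputs and 8.52, 7.82 and 6.93 in the N2 FLAG IPs. ND4 had a difference of −1.47, whereas CYTB (−4.02) and ND1 (−5.33) lay lowest. The difference between the 2 lists was not tested.

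**Figure D4:**
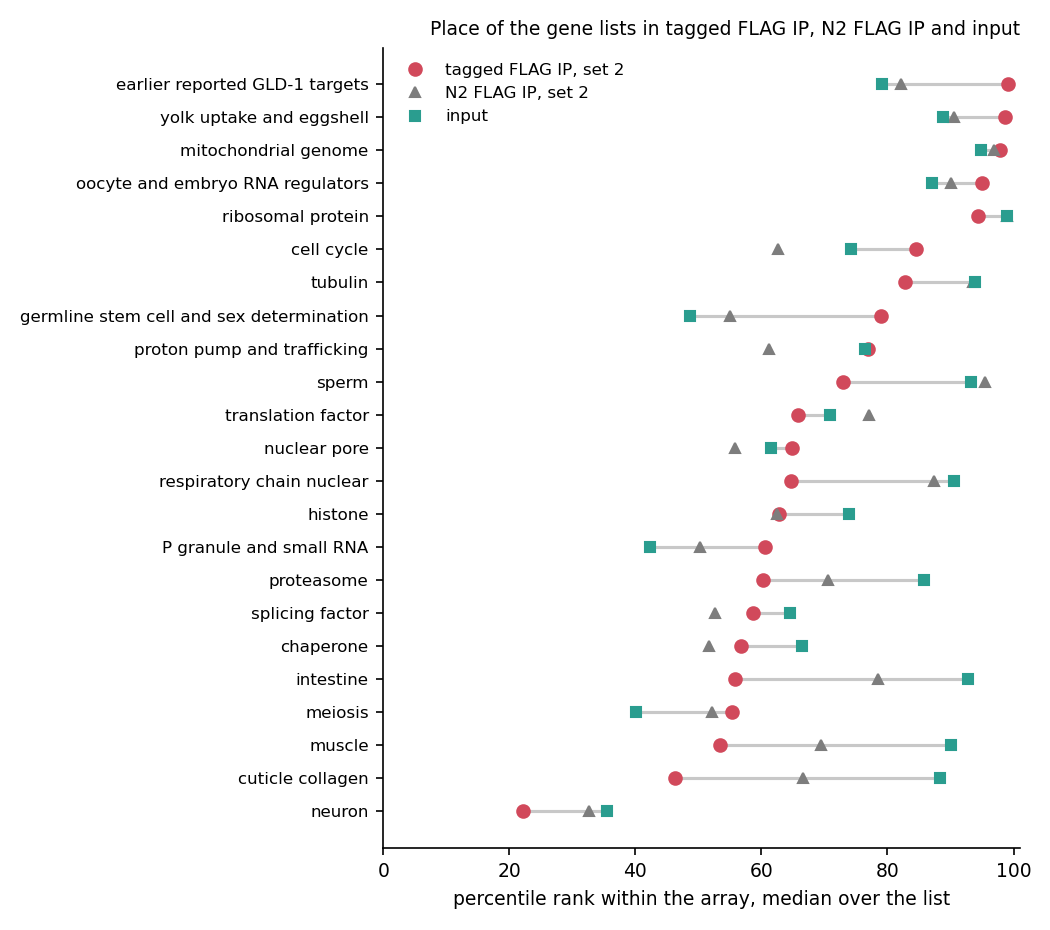
Median percentile rank (0 to 100 within each array, mean of 3 arrays per gene) of 23 gene lists in tagged FLAG IP, N2 FLAG IP and input. Ribosomal protein genes stood at 94.3 in tagged FLAG IP and 99.0 in input, and earlier reported targets at 99.1 in tagged FLAG IP and 79.1 in input.

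How far a transcript could fall depended on its input level. For the 1722 probe sets with input of log2 6 to 7 the median difference was −3.58, where the lowest array value allowed −4.01 at most at the middle of the bin. For the 445 probe sets at log2 10 to 11 it was −5.60, and for the 88 at log2 13 or more it was −5.98, where −10.81 could have been seen. Near-input probe sets were 2.67% of the lowest bin, 6.97% at log2 10 to 11 and 0% at log2 13 or more. Lost probe sets were 10.9% of the lowest bin, 0.225% at log2 10 to 11 and 0% from log2 11 upward. Against the median of probe sets of like input level, ribosomal protein genes lay at 0.31 (median of 74), collagens at −1.26, intestinal genes at −0.96, sperm genes at −0.72 and muscle genes at −0.39. Those bin medians include the listed genes themselves. The median input of ribosomal protein genes was 13.11, and the bin from log2 13 held 88 probe sets. Their value is therefore in good part a comparison with themselves. On the same measure earlier reported targets lay at 5.28, eggshell genes at 4.78, oocyte RNA regulators at 3.64 and mitochondrial genome transcripts at 3.42.

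**Figure D5:**
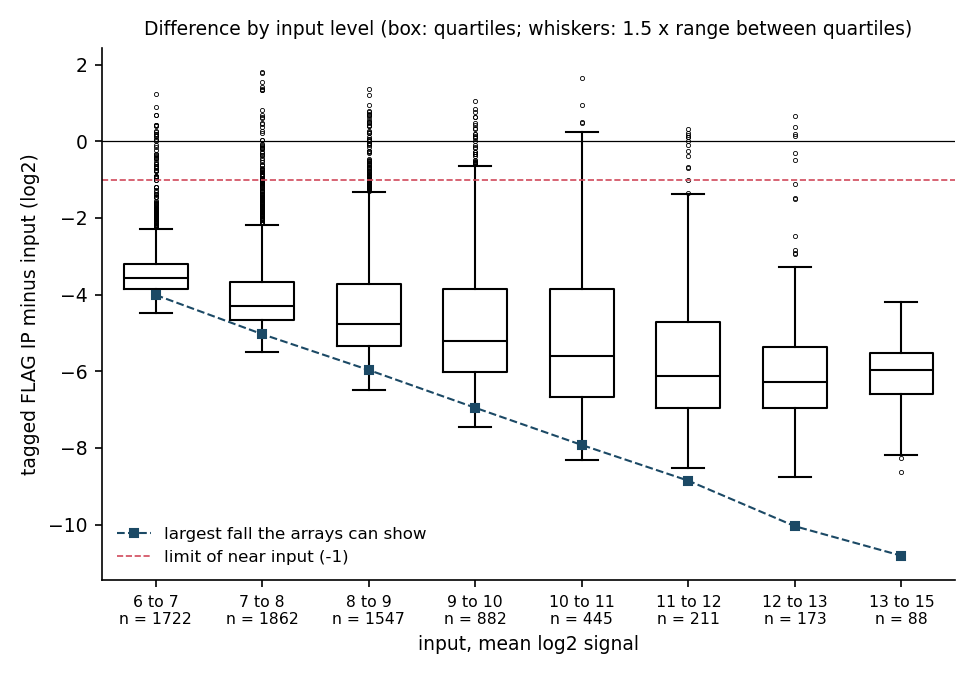
Log2 difference, tagged FLAG IP minus input, by input level, for 6930 probe sets in 8 bins (boxes show quartiles, squares the largest fall that the arrays' lowest values allow at the bin's median input). The median difference runs from −3.58 in the lowest bin to −5.98 in the highest, and only the lowest bins lie close to what the arrays can show.

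The lost transcripts were mostly those of low input. Their median input was log2 6.58 and 187 of 283 lay in the lowest input bin, so their fall is a lower bound that the lowest value sets. Of the 283, 211 were at the lowest value on all 3 N2 FLAG IPs as well and 125 on all 3 anti-FLAG IPs of the first set, where 605 and 145 of all 6930 probe sets were. All 283 were called lower in the log2 test, a direction that their definition fixes, and 138 had a lower percentile rank. Of the 210 lost genes 17 were in any of the 23 lists, among them 4 of 79 collagens (5.06%), 4 of 40 sperm genes (10.0%) and 3 of 25 muscle genes (12.0%), where 3.95% of all genes were lost. The number of lost probe sets rested on the dimmest values, and it was 446 without tagged FLAG IP replicate 1.

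A few lost transcripts were bright in the lysate. cpz-1, which encodes a cathepsin-type protease, read 2.52, 2.52 and 2.53 in the tagged FLAG IPs, against 10.10, 10.06 and 10.36 in the inputs, at least 201-fold lower (limma adjusted p = 3.83e-06). The collagen col-48 read 2.47, 2.50 and 2.49 in the tagged FLAG IPs and 9.80, 10.00 and 10.01 in the inputs, at least 175-fold lower. zig-12, an immunoglobulin-domain gene, was at least 138-fold lower and the nematode-specific gene nsph-3.1 at least 90.7-fold lower. The 8 lost genes of highest input were completed by col-142, F40A3.3, T23G11.1 and the galectin gene lec-5. These bounds set each group's mean input against the lowest value of the tagged FLAG IPs or the probe set's own value, whichever was higher.

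Ranks picked out low-input transcripts that kept their signal. The largest gain was that of pgap-3, whose percentile rank was 93.1 in the tagged FLAG IPs and 9.5 in the inputs (limma on ranks, adjusted p = 0.000129). pgap-3 read 7.53, 6.89 and 6.67 in the tagged FLAG IPs, against 6.21, 6.26 and 6.58 in the inputs and 2.54, 2.83 and 2.53 in N2. dnj-2, Y54G2A.19, hpo-42, tra-2, the chromatin gene ash-2, bath-15, T22C1.6, the cadherin gene cdh-5, the sirtuin gene sir-2.4, dagl-2 and gly-4 followed. These 12 genes had input ranks of 4.6 to 12.5 and tagged FLAG IP ranks of 82.5 to 94.0. Of the 12, gly-4 was also called lower in log2 (−0.76, limma adjusted p = 0.00848), and the other 11 were not called in log2.

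The largest falls in rank among transcripts above the lowest value were those of ZK180.5, trap-1, col-95, the fatty acid desaturase gene fat-7, nspg-6, col-109, dod-19 and the collagen dpy-5. ZK180.5 read 2.73, 2.62 and 2.63 in the tagged FLAG IPs, against 9.94, 9.90 and 10.10 in the inputs, and its rank was 14.63 in the tagged FLAG IPs and 86.3 in the inputs. trap-1, which encodes a translocon-associated protein, had ranks of 10.8 in the tagged FLAG IPs and 81.1 in the inputs. All 8 stood at the level of the N2 FLAG IPs, where none exceeded 3.29 on any array. A lower signal did not always mean a lower rank. Of the probe sets below near input and called lower in log2, 2172 lost rank, 1699 gained rank and 2758 were not called in rank.

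The limit of −1 cuts through a continuum. Just inside it were T05H4.11, K07H8.2, C25A1.1, Y102A5C.6 and the condensin gene capg-1, at −0.9995 to −0.989. Just outside were cyb-3, Y48G1A.2, lmtr-2, gld-3 and F09G8.7, at −1.03 to −1.004. Other probe sets above the filter lay further down for cyb-3 (−2.06) and gld-3 (−1.70), and higher for capg-1 (−0.66). With a limit of −2 the near-input class would hold 533 probe sets.

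The array's probe sets for one gene did not always share a class. Of 1129 genes with several probe sets above the filter, 65 had at least 1 near input and in 46 of these all were. The median range of the log2 difference within a gene was 0.61, and for 339 genes it was over 1. Probe sets marked by the array maker as sharing sequence with other transcripts made up 49.3% of the near-input class, 39.9% of the lost class and 48.3% of all 6930.

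The genes with the highest tagged FLAG IP signal came almost all from the near-input class. Of the 50 genes of highest mean, 43 were near input, against 3.76% of all genes, and 12 were called lower than input. A high tagged FLAG IP signal helps make a gene near input, so the count of 43 follows in part from the class. Ribosomal protein genes made up 0 of the 50, but 38 of the top 50 in the N2 FLAG IPs and 38 in the inputs. Signal of different probe sets depends on the probes, so these lists describe the arrays and not transcript numbers. The first of them, cpg-2, averaged 13.12 in the tagged FLAG IPs, against 12.76 in the inputs and 6.52 in N2. cpg-1, the C-type lectin gene clec-87, sip-1, oma-2 and cbd-1 came next.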

How the data were processed

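RNA of 15 samples in 5 groups of 3 was measured on Affymetrix C. elegans arrays. The deposited log2 values, 1 for each probe set on each array, were made by the authors with GCRMA per the submitters' processing notes. Its version is not given in the sources used here. GCRMA adjusts the background and summarises probes, and leaves a lowest value that differs by array. Such values understate falls of dim transcripts. Groups and replicate numbers came from sample titles, 0 columns of the table were without a sample, and the number of arrays limits precision.

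The 77 array control probe sets were left out. Linear models (limma 3.58.1, R 4.3.3, lmFit and eBayes, two-sided) were fitted to the 6 arrays over 22548 probe sets, with 4 residual and 0.901 prior degrees of freedom, and to percentile ranks over the 6930 probe sets with input of log2 6 or more (1.64 prior). The Benjamini-Hochberg adjustment was used, with calls made at an adjusted p under 0.05, no pseudocount and no further normalization. Errors of differences are standard errors and errors of group values SDs. With 3 arrays a group, the smallest two-sided p of an exact permutation test is 0.1. Both fits were run on simulated data in which only a small part of the probe sets was lowered. In the real comparison most probe sets fell, a setting that the simulation does not cover.

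The platform annotation gave 20766 probe sets 1 gene symbol, 887 several and 895 none. RefSeq names, matched by Entrez ID, changed 0 symbols. The authors' genome build is not given in the sources used here, so no position is printed, and no sequence of a probe or transcript was used here. A gene was represented by its own probe set with the highest mean over 15 arrays, 12 of them IPs. Unlike the input filter, this choice made use of the IP arrays and can favour probe sets that are high in them. For snpn-1 it took a difference of 1.81 over 0.27, and for dnj-2 0.89 over −0.55, although the inputs of the probe sets not taken were higher. The near-input share was 3.76% by gene and 3.87% by probe set. Named genes were gld-1, the 12 largest gains and 8 largest falls in rank (called, arrays not overlapping, above the lowest value for falls), genes called higher, the 8 lost genes of highest input, 5 on each side of −1, the 2 highest and 2 lowest of each list and all earlier reported targets. Other names were picked after their values were seen. The probe sets, classes and 23 gene lists, written from general knowledge, were chosen with earlier results of these data known. The collagen, splicing and mitochondrial lists were corrected for gene identity after values were seen. Alternatives are given in the closing section. They were another scaling, filter, limit, spread, threshold, rank scale or probe set choice, array weights, the replicate block and each array left out.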

Additional observations from a re-analysis of the deposited data

Results flagged for a closer look

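Below the input filter, 6 of 15618 probe sets reached a mean of log2 6 or more in the tagged FLAG IPs, outside the comparison of the report and above their N2 values. A second eme-1 probe set averaged 6.48 ± 0.50 in the tagged FLAG IPs, against 5.19 ± 0.66 in the inputs (SD, n = 3 each; difference 1.28, limma adjusted p = 0.0394) and 2.87 in N2. The T-box gene tbx-36 had a difference of 1.05 (limma adjusted p = 0.0994) and mau-8 one of 0.656 (limma adjusted p = 0.441). A probe set listed for both Y34F4.3 and pup-2 differed by 0.556, one of zip-4 by 0.408 and lmd-1 by 0.374, none of them called. N2 means of the 6 lay between 2.52 and 3.06.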

How the results depend on the processing

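Higher calls numbered 16, with 8 under the replicate block, 52 with array weights, 1 with treat, 6 at adjusted p under 0.01, 10 centred on hybridization controls, 9 at input of log2 8, 10 with 1 probe set per gene and 8 without shared sequence. Quantile normalization gave 1570 higher, 2473 lower, 4422 near input and a median of −0.46. Centring on the probe sets' medians, which brings every array's median to a common value, gave 2906, 1756, 5802 and a median of 0.32. Input of log2 8 or more gave 3194 lower, 1048 and 1231 higher and lower ranks, 166 near, 24 lost and a median of −5.09, and log2 5 gave 700 lost. A mean of log2 6 over the 6 arrays gave 2705 lower, ranks 1157 and 1311, and 4 lost. Leaving out shared sequence gave 3448 lower, ranks 1068 and 979, 136 near and 170 lost. These filters test fewer or more probe sets. Limits of −0.5 and −2 gave 156 and 533 near, and limits of 0.05 and 0.2 gave 166 and 617 lost.

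Leaving out 1 array gave 6138 to 7242 lower, 9 to 22 higher, 1621 to 2203 and 1733 to 2294 higher and lower ranks, 207 to 308 near, 218 to 446 lost and medians of −4.36 to −4.12. Deviations of same-numbered arrays from their group means had r of −0.09, 0.0026 and 0.076, and those of other pairs −0.090 to 0.084. Noise of the IPs could hide a shared lysate, so these values do not settle whether same-numbered arrays were paired. The replicate block otherwise kept these counts within 1.5 times. The cause of each change was not tested, apart from the number of probe sets tested. Dim transcripts are limited by the arrays' lowest value.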
